A study of Mus musculus with 15 samples.

Results

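Vomeronasal receptors are the pheromone and kairomone receptors of the vomeronasal organ, and in the mouse they are encoded by the V1R genes (symbols Vmn1r) and the V2R genes (symbols Vmn2r). All autosomal protein-coding genes of the GENCODE M21 annotation (mm10) whose symbols start with Vmn1r or Vmn2r were taken, which gave 329 of 20807 genes, 208 of them Vmn1r and 121 Vmn2r. One symbol, Vmn1r216, stands for a pair of gene entries, and Vmn2r-ps159 is counted because the annotation lists it as protein-coding. The region of a gene was its span plus 2 kb on both sides. These regions held 29381 CG dinucleotides, 10361 in Vmn1r and 19020 in Vmn2r regions, of 20383623 on the autosomes.

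All libraries came from DNA of E14TG2a, a mouse embryonic stem cell line of 129 origin grown with LIF and serum on gelatin, so no genotype or treatment differed between groups and the groups share 1 cell line. Reads at 5-hydroxymethylcytosine (5hmC) were obtained by hmTOP-seq, in which a glucosyltransferase (BGT) puts an azide sugar on 5hmC, from 500, 50 or 5 ng of DNA. For every amount there were 2 labelled libraries, which are technical replicates, and 2 controls that skipped the BGT labeling. Reads at unmodified CGs (uCG) were obtained by uTOP-seq at 300 ng with 3 replicates. The 9 labelled libraries held 14884939 to 32502791 reads and the 6 controls 3409 to 10072. As a check of the cell type, the median uCG level around the starts of 10 embryonic stem cell genes (2 kb upstream to 500 bases downstream) was 3.08 reads per CG (range 1.41 to 6.19), against 2.19 for the other protein-coding genes and 0.476 for the vomeronasal receptor genes. The starts of 4 vomeronasal sensory neuron genes (Trpc2, Omp, Gnao1 and Gng8) had a median of 1.84 (1.13 to 3.32), which overlaps the stem cell genes, so this check separates the cell types only weakly. The hmTOP-seq replicates are technical, and nothing says that the uTOP-seq replicates came from separate cultures, so p-values here measure only the spread between libraries.

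In the vomeronasal organ each sensory neuron expresses 1 or very few of these receptors. V1R neurons signal through the G protein subunit encoded by Gnai2 and V2R neurons through that encoded by Gnao1, and both need the channel Trpc2. V1R proteins have a short amino-terminal end, and their coding sequence usually sits in 1 exon, whereas V2R proteins carry a long extracellular domain encoded by several exons. In the annotation used here 193 of 208 Vmn1r genes had 1 coding exon and 112 of 121 Vmn2r genes had 6. Both families expanded by tandem duplication, so neighbouring copies can be nearly identical. A read that comes equally well from several copies gets a low mapping quality and is lost to a quality filter, which makes the sequence around each CG part of the measurement.

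How far copies are alike is seen at a CG in the coding exon of Vmn1r130 (chr7:21512587-21512666, plus strand, mm10). The 80 bases that start with this CG, shown because they carry the copy problem of the largest V1R cluster, were found 17 times in the genome, in 14 cases in coding exons of members: Vmn1r95, Vmn1r100, Vmn1r104, Vmn1r107, Vmn1r111, Vmn1r116, Vmn1r118, Vmn1r125, Vmn1r130, Vmn1r137, Vmn1r148, Vmn1r152, Vmn1r155 and Vmn1r165. Over the 9 labelled libraries these 14 members had 0 reads at this CG. The windows at the same place of Vmn1r143 and Vmn1r128 occur once but differ from it by 1 and 2 bases, and they held no read in the 500-ng or uTOP-seq libraries either. A related window in Vmn1r91, which also occurs once, differs by 3 bases and held no read in these libraries. The window of Vmn1r183 was picked from related windows with reads. It differs by 17 bases and had 1 read, in the third uTOP-seq library, which is too few to set apart from 0. Capitals mark the CG in the first line, and in the other lines the bases that differ from the first.
Vmn1r130: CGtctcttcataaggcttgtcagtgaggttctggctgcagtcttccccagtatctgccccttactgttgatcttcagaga
Vmn1r143 (chr7:22190184-22190263): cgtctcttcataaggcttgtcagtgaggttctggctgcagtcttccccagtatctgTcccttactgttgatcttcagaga
Vmn1r128 (chr7:21350180-21350259): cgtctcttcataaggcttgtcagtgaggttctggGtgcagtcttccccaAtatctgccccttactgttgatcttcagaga
Vmn1r183 (chr7:24055575-24055654): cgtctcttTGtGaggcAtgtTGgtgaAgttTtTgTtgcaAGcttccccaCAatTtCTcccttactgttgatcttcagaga

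The other end of the range is given by single CGs with many reads, each with windows that occur once on both strands. The CG with the most 500-ng hmTOP-seq reads in Vmn2r regions lay in a non-coding exon of Vmn2r86 and had 50 and 32 reads in the 500-ng libraries, 11 and 30 in the 50-ng, 26 and 15 in the 5-ng and 16, 4 and 4 in the uTOP-seq libraries. In Vmn1r regions it was an intronic CG of Vmn1r83, which in the same order had 27 and 35, 27 and 11, 9 and 45, and 8, 2 and 1 reads. A second intronic CG of this gene tied with it at 500 ng (34 and 28 reads) and had 0, 0 and 1 uTOP-seq reads. The reverse was seen downstream of Vmn1r235, where a CG had 18, 11 and 11 uTOP-seq reads and 0 reads in every hmTOP-seq library. Its sequence is printed with the other CGs because it was read in all 3 uTOP-seq libraries and in no hmTOP-seq library. Capitals mark the CG.
Vmn2r86 (chr10:130445003-130445062): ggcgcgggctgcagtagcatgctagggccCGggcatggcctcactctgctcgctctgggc
Vmn1r83 (chr7:12326559-12326618): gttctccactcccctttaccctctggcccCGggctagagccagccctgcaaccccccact
Vmn1r235 (chr17:21263985-21264044): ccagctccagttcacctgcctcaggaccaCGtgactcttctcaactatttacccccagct

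Vomeronasal receptor regions held few reads of either kind. At 500 ng, hmTOP-seq gave 0.412 and 0.397 reads per CG in Vmn1r regions and 0.301 and 0.309 in Vmn2r regions, against a mean of 1.90 in the regions of all other protein-coding genes. The 50-ng libraries gave 0.287 and 0.284 for Vmn1r and 0.222 and 0.209 for Vmn2r, and the 5-ng libraries 0.230 and 0.212, and 0.130 and 0.114. The 3 uTOP-seq libraries gave 0.727, 0.594 and 0.531 reads per CG in Vmn1r and 0.490, 0.412 and 0.344 in Vmn2r regions, against a mean of 1.41 in the other genes. In each of the 9 libraries both families lay below the other genes, and Vmn2r below Vmn1r. The 6 controls held 9 reads in these regions in all, 0 to 5 per library, against 19987 in the 500-ng labelled pair. Relative to their own small depth, the 500-ng controls had 25.8% ± 16.7 of their autosomal mean here (SD, n = 2, 7 reads), against 21.8% ± 0.27 in the labelled libraries, too few reads to tell the shares apart.

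As a ratio within each library, which cancels depth, the 5hmC level of vomeronasal receptor regions was 18.1% of that of the other genes (mean log2 ratio -2.47 ± 0.06, SD over 6 libraries, range -2.57 to -2.38). The ratio was below 1 in 6 of 6 libraries, with p = 0.03125 in a two-sided exact sign-flip permutation test, the smallest p that 6 libraries allow. The uCG level was 34.5% of that of the other genes (log2 ratio -1.54 ± 0.02, 3 of 3 libraries below 1), where the exact sign-flip test cannot go below its p of 0.25. Vmn1r regions exceeded Vmn2r regions by 0.56 ± 0.24 on the log2 scale in 5hmC (6 of 6 libraries, exact sign-flip permutation p = 0.03125) and by 0.57 ± 0.05 in uCG (3 of 3 libraries, exact p = 0.25). The 5hmC difference was 0.45 and 0.36 at 500 ng, 0.37 and 0.44 at 50 ng, and larger at 5 ng with 0.82 and 0.89. Over CGs whose 80-base windows occur once, the mean differences were 0.40 in 5hmC and 0.42 in uCG. The olfactory receptor genes, the other large clustered chemoreceptor family (1128 autosomal Olfr genes), gave 0.608 reads per CG at 500 ng and 0.751 in uTOP-seq, between the vomeronasal families and the other genes.

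**Figure D1:**
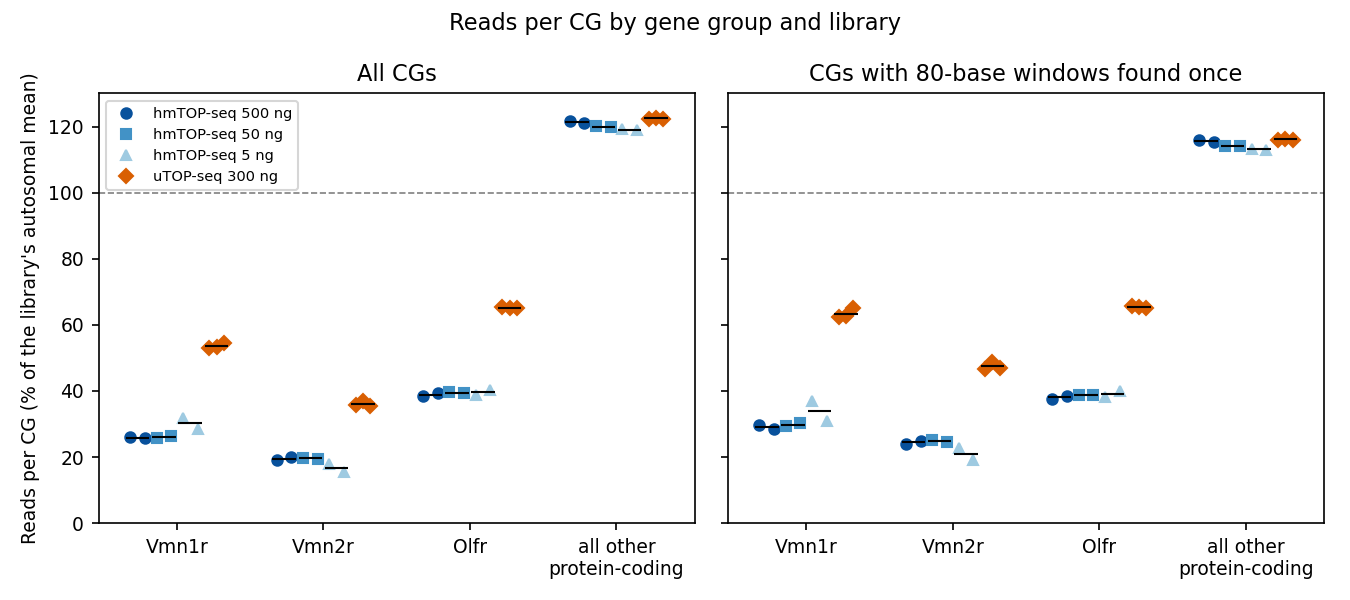
Reads per CG in percent of the autosomal mean of the same library (y axis) for Vmn1r, Vmn2r, Olfr and all other protein-coding gene regions (x axis, the last including Olfr), for all CGs (left) and for CGs whose 80-base windows occur once on both strands (right, in percent of the mean of such autosomal CGs). Each point is 1 library, the black line is the mean of an assay and input, and both vomeronasal families sit below the Olfr and other genes in both panels.

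CG content and repeat content differed as well. The median Vmn1r region had 4.22 CGs per kb and the median Vmn2r region 3.90, close to the 4.07 of Olfr and below the 12.3 of the other protein-coding genes. Soft-masked repeats held 33.9% of the CGs in Vmn1r and 49.6% in Vmn2r regions, against 16.9% in the other genes. Of the RefSeq promoter sequences (GRCm38.p6, 250 bases before to 50 after the start), 44 of 183 Vmn1r promoters (24.0%) and 34 of 115 Vmn2r promoters (29.6%) had no CG at all, against 5.25% of 31396 autosomal promoters. Their part in the read levels was not tested.

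To measure how much of the shortage goes with copied sequence, the 80 bases starting at each CG were looked up on each strand in the whole reference. A window that was found at a second place on either strand made the CG repeated. Repeated CGs were 26.3% of the CGs in Vmn1r and 35.2% in Vmn2r regions, 12.3% in Olfr and 5.58% in the other genes. At repeated CGs the 500-ng level was 0.137 ± 0.010 reads per CG (SD, n = 2) in Vmn1r and 0.0945 ± 0.0039 in Vmn2r regions. At CGs whose windows occur once it was 0.499 ± 0.017 and 0.420 ± 0.006, against 1.98 in the other genes. The uCG level there was 0.809 ± 0.129 (n = 3) in Vmn1r and 0.607 ± 0.103 in Vmn2r regions, against 1.49. At single-copy windows the level was thus higher, and the 5hmC ratio to the other genes was 23.0% (6 of 6 libraries below 1) and the uCG ratio 46.1% (3 of 3). Such windows can still have near copies, and at 3653 of these CGs a window mapped by minimap2 had a quality under 30. At CGs with a quality of 60 on both strands the members had 0.492 reads per CG at 500 ng and 0.824 in uTOP-seq. Over all their single-copy CGs they had 0.450 and 0.684. CGs of the other genes were not classed by this quality. In percent of the autosomal mean of single-copy CGs, Vmn1r and Vmn2r regions had 29.1% and 24.5% in 5hmC, against 38.1% in Olfr. In uCG they had 63.3% ± 1.4 and 47.5% ± 1.1 (SD, n = 3), against 65.4% ± 0.29, so Vmn1r was close to Olfr there.

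uTOP-seq reads are given by strand, so the window that a read covers can be told from the window of the opposite strand. Where both windows occur once, a cytosine in Vmn1r regions had 0.404 ± 0.064 reads (SD, n = 3) and one in Vmn2r regions 0.304 ± 0.051. Where the own window is repeated but the opposite one is not, the values were 0.0223 ± 0.0083 and 0.0226 ± 0.0047. Where the own window occurs once and the opposite one is repeated, they were 0.135 ± 0.032 and 0.124 ± 0.038. At the same CGs, reads were thus fewer on the strand whose own window is copied. The other genes had the same order, with 0.743, 0.0654 and 0.280 reads per cytosine.

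**Figure D2:**
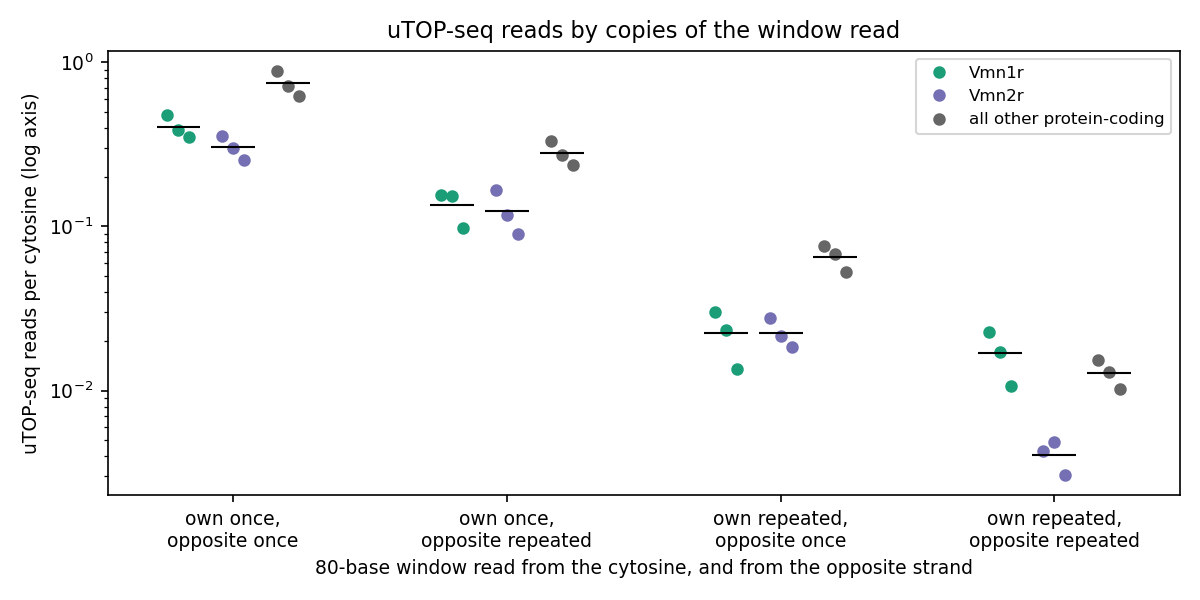
uTOP-seq reads per cytosine (log axis) by whether the 80-base window read from the cytosine, and that of the opposite strand, occurs once or is repeated in the reference, for Vmn1r, Vmn2r and all other protein-coding gene regions. Points are the 3 libraries and the line their mean, and the levels in the classes with a repeated own window lie below both classes where the own window occurs once.

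Many CGs in these regions were never read. No read in any of the 15 libraries was found at 4928 of 10361 CGs in Vmn1r regions (47.6%, exact Clopper-Pearson 95% interval 46.6 to 48.5%) and at 11139 of 19020 in Vmn2r regions (58.6%, 57.9 to 59.3%). The share was 35.9% in Olfr and 20.1% in the other genes. Intervals cover counting error only. Where windows occur once the share fell to 34.1% in Vmn1r and 42.4% in Vmn2r regions, against 16.8% in the other genes, and where a window is repeated it was 85.5% and 88.4%, against 74.6%. At CGs with a minimap2 quality of 60 on both strands the share was 28.5% in Vmn1r and 36.4% in Vmn2r regions. By assay, 74.4% of the Vmn1r and 81.0% of the Vmn2r CGs had no hmTOP-seq read, and 55.6% and 65.7% no uTOP-seq read.

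Members ranged from no reads at all to levels above a typical gene. The median member had 0.188 reads per CG at 500 ng (Vmn1r 0.197, Vmn2r 0.169) and 0.486 in uTOP-seq (0.596 and 0.444), whereas the median of the other genes was 1.60 and 1.55. Of 329 members, 320 lay below the other genes' median in 5hmC and 326 in uCG, where 50% of the other genes lie by definition. Most Olfr genes also lay below it, with 1082 of 1128 in 5hmC and 1107 in uCG. The replicate libraries ordered the members alike at 500 ng (Pearson's r = 0.954 across the 329 regions, a description since regions share libraries), less so at 50 ng (0.784) and least at 5 ng (0.506). In uTOP-seq r was 0.868 to 0.899. At 5 ng only 106 members had a read in both libraries and 96 had reads in 1 library alone, so a level of a single member at 5 ng is of little weight.

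Levels were set beside the share of a member's CGs that have single-copy windows. The 123 members with windows that occur once at 90% or more of their CGs had a median of 0.269 reads per CG at 500 ng and 0.754 in uTOP-seq, and each had reads in a labelled library. The 115 members with 50 to under 90% had medians of 0.247 and 0.449, and 1 of them had no labelled read. In Vmn2r the 5hmC medians of these classes were close to each other (0.244 and 0.252). The 59 members above 0 and under 50% had medians of 0 and 0, and 24 of them had no labelled read. The 32 members without any such CG, 29 of them Vmn1r, also had medians of 0 and 0, and 29 had no labelled read.

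**Figure D3:**
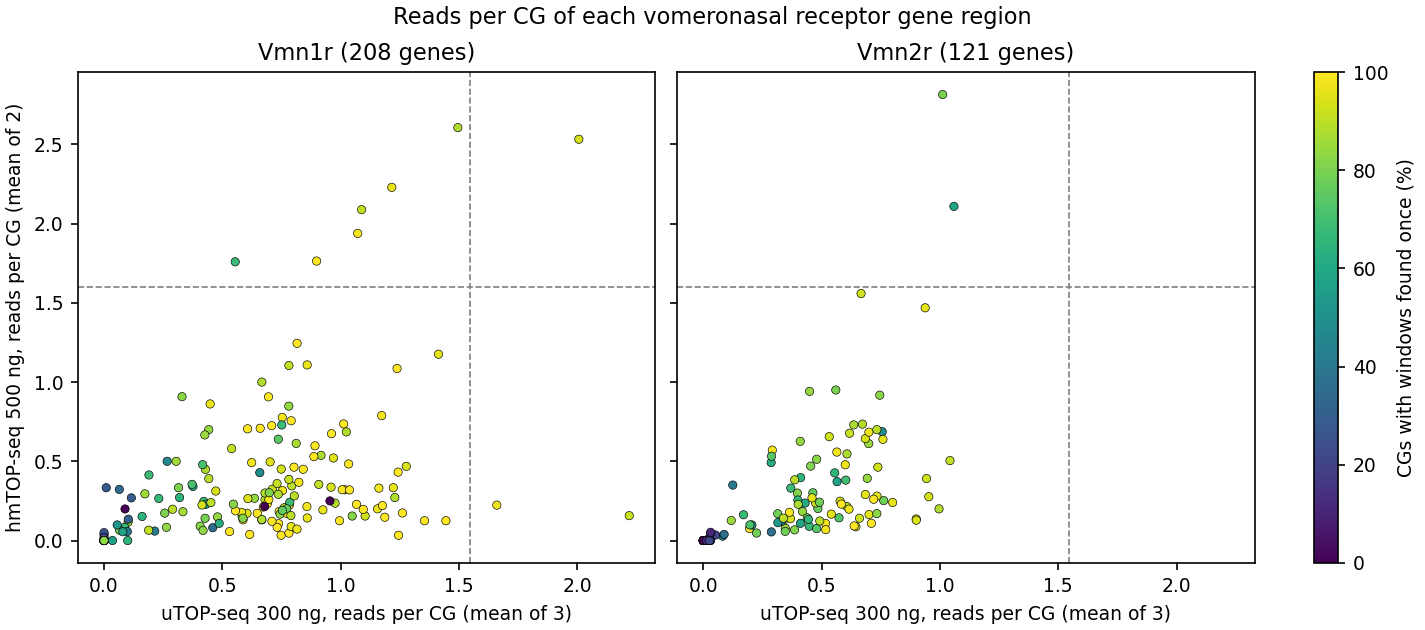
Reads per CG of each Vmn1r (left) and Vmn2r (right) region in uTOP-seq (x axis, mean of 3 libraries) and hmTOP-seq at 500 ng (y axis, mean of 2), coloured by the percentage of its CGs with 80-base windows that occur once. Dashed lines are the medians of all other protein-coding genes, which 9 members exceed in 5hmC and 3 in uCG, and most dark points, which have few single-copy windows, lie near the origin.

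In all, 54 members (41 Vmn1r, 13 Vmn2r) had no read in any labelled library, 53 of them on chromosome 7, which holds 154 of the 329 members. Of these, 29 had no CG with single-copy windows, and the other 25 had 93 such CGs between them, at most 15 in 1 gene (Vmn2r29). Among members with at least 20 CGs the fewest 500-ng reads were seen in Vmn1r139 (281 CGs), Vmn1r114, Vmn1r93, Vmn1r121 and Vmn1r126, and in Vmn2r35 (487 CGs), Vmn2r21, Vmn2r38, Vmn2r46 and Vmn2r48, all with 0 at 500 ng (ties were ordered by the number of CGs). Vmn1r139, Vmn1r93, Vmn2r21 and Vmn2r46 had no CG with single-copy windows and Vmn2r35 had 2. A count of 0 allows up to 3 reads in a library, but with most of their CGs repeated it sets no firm limit on the modification in these genes. The largest share of single-copy CGs was 21.9% in Vmn1r121 (7 of 32), and Vmn2r48 had 15 of 120.

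Most members shared a window with another member, but fewer were near-identical. Identical 80-base windows were shared by 1613 pairs of members in separate regions, 392 of them across the families, and 94 members shared none. In 40 pairs, made of 42 members, at least 50% of the windows of both were shared. The pairs Vmn1r130 and Vmn1r137, Vmn1r131 and Vmn1r138, Vmn1r107 and Vmn1r155, and Vmn1r135 and Vmn1r163 had the same set of windows throughout, 46, 38, 46 and 38 of them, and all 8 genes had 0 reads at 500 ng and in uTOP-seq. Values of such members cannot be assigned to 1 copy. E14TG2a is of 129 origin while the reference is C57BL/6J, and whether the line has the same copies was not tested.

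The V2R members with the most 5hmC were neighbours on chromosome 10. Vmn2r86 (chr10:130441562-130456050) had 3.04 and 2.59 reads per CG in the 500-ng libraries, 1.54 and 1.89 in the 50-ng and 1.21 and 0.216 in the 5-ng libraries. Its neighbour Vmn2r85 had, in the same order, 2.01 and 2.21, 1.10 and 1.55, and 0.621 and 0.790. In V2R genes these were followed by Vmn2r10 with 1.53 and 1.59, Vmn2r90 with 1.48 and 1.46 and Vmn2r83 with 0.830 and 1.07 reads per CG at 500 ng. The first pair lay above the other genes' median of 1.60 in both libraries, and the other 3 below it.

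Among the V1R genes Vmn1r210 (chr13:22825875-22831348) led with 99 and 73 reads in the 500-ng libraries (33 CGs, a mean of 2.61 reads per CG), 35 and 50 in the 50-ng and 69 and 74 in the 5-ng libraries. Vmn1r1 (chr1:182154704-182164486), the only member on its chromosome, had 2.71 and 2.36 reads per CG in the 500-ng libraries and 0.841 and 1.29 in the 5-ng libraries. Vmn1r55 had 2.20 and 2.25 at 500 ng, Vmn1r199 2.19 and 1.99 and Vmn1r196 1.85 and 2.03. With Vmn1r83 (1.69 and 1.83) and Vmn1r200 (1.90 and 1.63), the latter named after the values were seen, these are the 7 Vmn1r genes above the median of the other genes in 5hmC. The libraries of Vmn1r210 and Vmn1r1 overlap in level, as do those of Vmn1r199 and Vmn1r196, while both libraries of Vmn1r1 lay above both of Vmn1r55.

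How the reads spread within these regions differed. In Vmn1r210 the 5 most-read CGs held 121 of 172 reads at 500 ng (70.3%), in Vmn2r83 116 of 190 (61.1%) and in Vmn1r196 149 of 252 (59.1%). In Vmn1r1 the top 5 held 129 of 542 reads (23.8%), and 72.9% of its 107 CGs had a 500-ng read. In Vmn2r86 the top 5 held 38.1% of 653 reads, among them the CG printed above. A high level of a member can thus rest on few CGs.

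In uTOP-seq the V1R members with the highest levels were Vmn1r235 with 2.57, 2.29 and 1.80 reads per CG, Vmn1r1 with 2.56, 1.56 and 1.90, and Vmn1r236 with 2.13, 1.60 and 1.26. These 3 are the members above the other genes' uCG median. Vmn1r235 and Vmn1r236, next to each other on chromosome 17, had 0.229 and 0.0857, and 0.383 and 0.0638, 5hmC reads per CG at 500 ng. Vmn1r235 had more in other hmTOP-seq libraries, with 0.514 and 0.657 at 50 ng and 0.114 and 0.714 at 5 ng, and Vmn1r236 0.340 and 0.213, and 0.128 and 0. Of the V2R members Vmn2r85 had 1.31, 0.911 and 0.952, Vmn2r112 1.36, 0.973 and 0.791, and Vmn2r86 1.33, 0.974 and 0.733 uCG reads per CG. Vmn1r1 was thus the only member above the other genes' median in both 5hmC at 500 ng and uCG. Over members with at least 20 single-copy CGs, the 5hmC and uCG levels had a Spearman's rho of 0.28 in Vmn1r (141 members) and 0.49 in Vmn2r (102 members), a description across regions that share libraries and base composition.

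Joined where gaps between genes of a family stayed under 1 Mb, the members formed 30 clusters, 13 of Vmn1r and 17 of Vmn2r genes, 8 of them of 1 gene. At single-copy windows, 27 of the 30 had a lower 500-ng level than the sequence within 1 Mb on both sides and 25 a lower uCG level. The outside sequence includes other genes. Single-copy CGs between the genes of a cluster, in no gene region, were mostly below the outside level too. They had 0.429 reads per CG at 500 ng in Vmn1r91 to Vmn1r183, against 3.40 outside, and 0.0663 in Vmn2r29 to Vmn2r52, against 1.14. They exceeded the outside level in Vmn1r2 to Vmn1r3, Vmn1r224 to Vmn1r237 and Vmn2r84 to Vmn2r87. The lowest large cluster was Vmn2r29 to Vmn2r52 on chromosome 7, with 24 genes and 2839 CGs. Its reads per CG were 0.0067 and 0.0063 at 500 ng, and 0.0352, 0.0296 and 0.0359 in uTOP-seq. Repeated CGs made up 86.8% of it, 95.7% of its CGs had no read and 12 of its genes had no labelled read. At its 375 CGs with single-copy windows the level was 0.0240 in both 500-ng libraries and 0.221, 0.187 and 0.229 in uTOP-seq, against 1.14 and 1.16 outside. At the 127 CGs where simulated reads also mapped with the top quality of 60 on both strands, it was 0.0394 and 0.0472 at 500 ng and 0.528, 0.449 and 0.480 in uTOP-seq. Over all Vmn2r regions such CGs had means of 0.470 at 500 ng and 0.737 in uTOP-seq, so the uCG level of this cluster was nearer to that of the family than its 5hmC level. At these 127 CGs the 5hmC level of the cluster rests on only a few reads per library.

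The largest V1R cluster, Vmn1r91 to Vmn1r183 on chromosome 7, held 65 genes and 2148 CGs, of which 71.3% were repeated and 85.9% had no read, and 41 of its genes had no labelled read. It had 0.0717 and 0.0824 reads per CG at 500 ng and 0.155, 0.124 and 0.119 in uTOP-seq. At its 617 CGs with single-copy windows these rose to 0.196 and 0.248, and to 0.519, 0.395 and 0.397. The sequence within 1 Mb outside it had 3.40 reads per CG at 500 ng and 2.29 in uTOP-seq. The other Vmn1r clusters of more than 2 genes had less copied sequence. Vmn1r188 to Vmn1r223 on chromosome 13 (36 genes, 14.2% repeated) had 0.648 and 0.657 reads per CG at 500 ng, and Vmn1r55 to Vmn1r65 on chromosome 7 (11 genes) 0.749 and 0.750. Vmn1r4 to Vmn1r31 on chromosome 6 (28 genes) had 0.378 and 0.354, Vmn1r66 to Vmn1r89 on chromosome 7 (24 genes) 0.436 and 0.421, and Vmn1r40 to Vmn1r54 on chromosome 6 (15 genes) 0.393 and 0.369. The lowest of them was Vmn1r32 to Vmn1r39 on chromosome 6 (8 genes) with 0.214 and 0.203.

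A few clusters were not low. Vmn2r84 to Vmn2r87 on chromosome 10 (4 genes, 551 CGs, 38.5% repeated) had 1.44 and 1.36 reads per CG in the 500-ng, 0.788 and 0.964 in the 50-ng, 0.546 and 0.289 in the 5-ng and 1.07, 0.795 and 0.737 in the uTOP-seq libraries. At single-copy windows it had 1.81 and 1.67 at 500 ng, above the 0.625 of the sequence within 1 Mb outside it. Vmn1r1 had 2.62 and 2.29 there, against 2.31 outside, so its surroundings were high as well. At its 86 CGs with a minimap2 quality of 60 it had 2.16 and 1.97, below that outside level, which was not restricted by this quality. Vmn1r224 to Vmn1r237 on chromosome 17 (14 genes, 6.52% repeated) combined a low 5hmC level (0.331 and 0.261 at 500 ng) with the highest uCG level of a cluster of more than 4 genes (1.16, 1.04 and 0.899). At single-copy windows its uCG mean was 1.09, against 0.897 outside.

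Among the V2R clusters, Vmn2r90 to Vmn2r110 on chromosome 17 (22 genes, 3379 CGs) had 0.320 and 0.330 reads per CG at 500 ng. Vmn2r65 to Vmn2r79 on chromosome 7 (15 genes, 8.65% repeated) had 0.325 and 0.310, and Vmn2r1 to Vmn2r7 on chromosome 3 (7 genes) 0.317 and 0.310. Vmn2r8 to Vmn2r17 on chromosome 5 (10 genes) had 0.410 and 0.414, Vmn2r19 to Vmn2r27 on chromosome 6 (9 genes, 44.6% repeated) 0.270 and 0.335, and Vmn2r57 to Vmn2r63 on chromosome 7 (7 genes) 0.337 and 0.347. Vmn2r111 to Vmn2r117 on chromosome 17 (8 genes) was lower with 0.158 and 0.227, and Vmn2r53 to Vmn2r56 and Vmn2r80 to Vmn2r83 (4 genes each) had 0.287 and 0.269, and 0.386 and 0.408. Of the V2R genes outside larger clusters, Vmn2r28 had 0.0541 and 0.0405, Vmn2r-ps159 0.101 and 0.152, Vmn2r18 0.299 and 0.303, Vmn2r118 0.318 and 0.343, Vmn2r120 0.476 and 0.306, and the pair Vmn2r88 and Vmn2r89 0.355 and 0.373. The V1R genes left are few and short of CGs, with 0.194 in both libraries of Vmn1r90 (31 CGs), 0.435 and 0.326 in Vmn1r2 and Vmn1r3 (46 CGs, 60.9% repeated), 0.462 and 0.302 in Vmn1r184 and Vmn1r185 (106 CGs) and 0.417 and 0.542 in Vmn1r238 (24 CGs). At its 18 single-copy CGs the pair Vmn1r2 and Vmn1r3 had 1.11 and 0.833, about the 0.964 of the sequence outside it, and so was the third cluster not below its surroundings in 5hmC. Only 4 of its CGs had a minimap2 quality of 60, with 0.25 and 0 reads per CG.

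**Figure D4:**
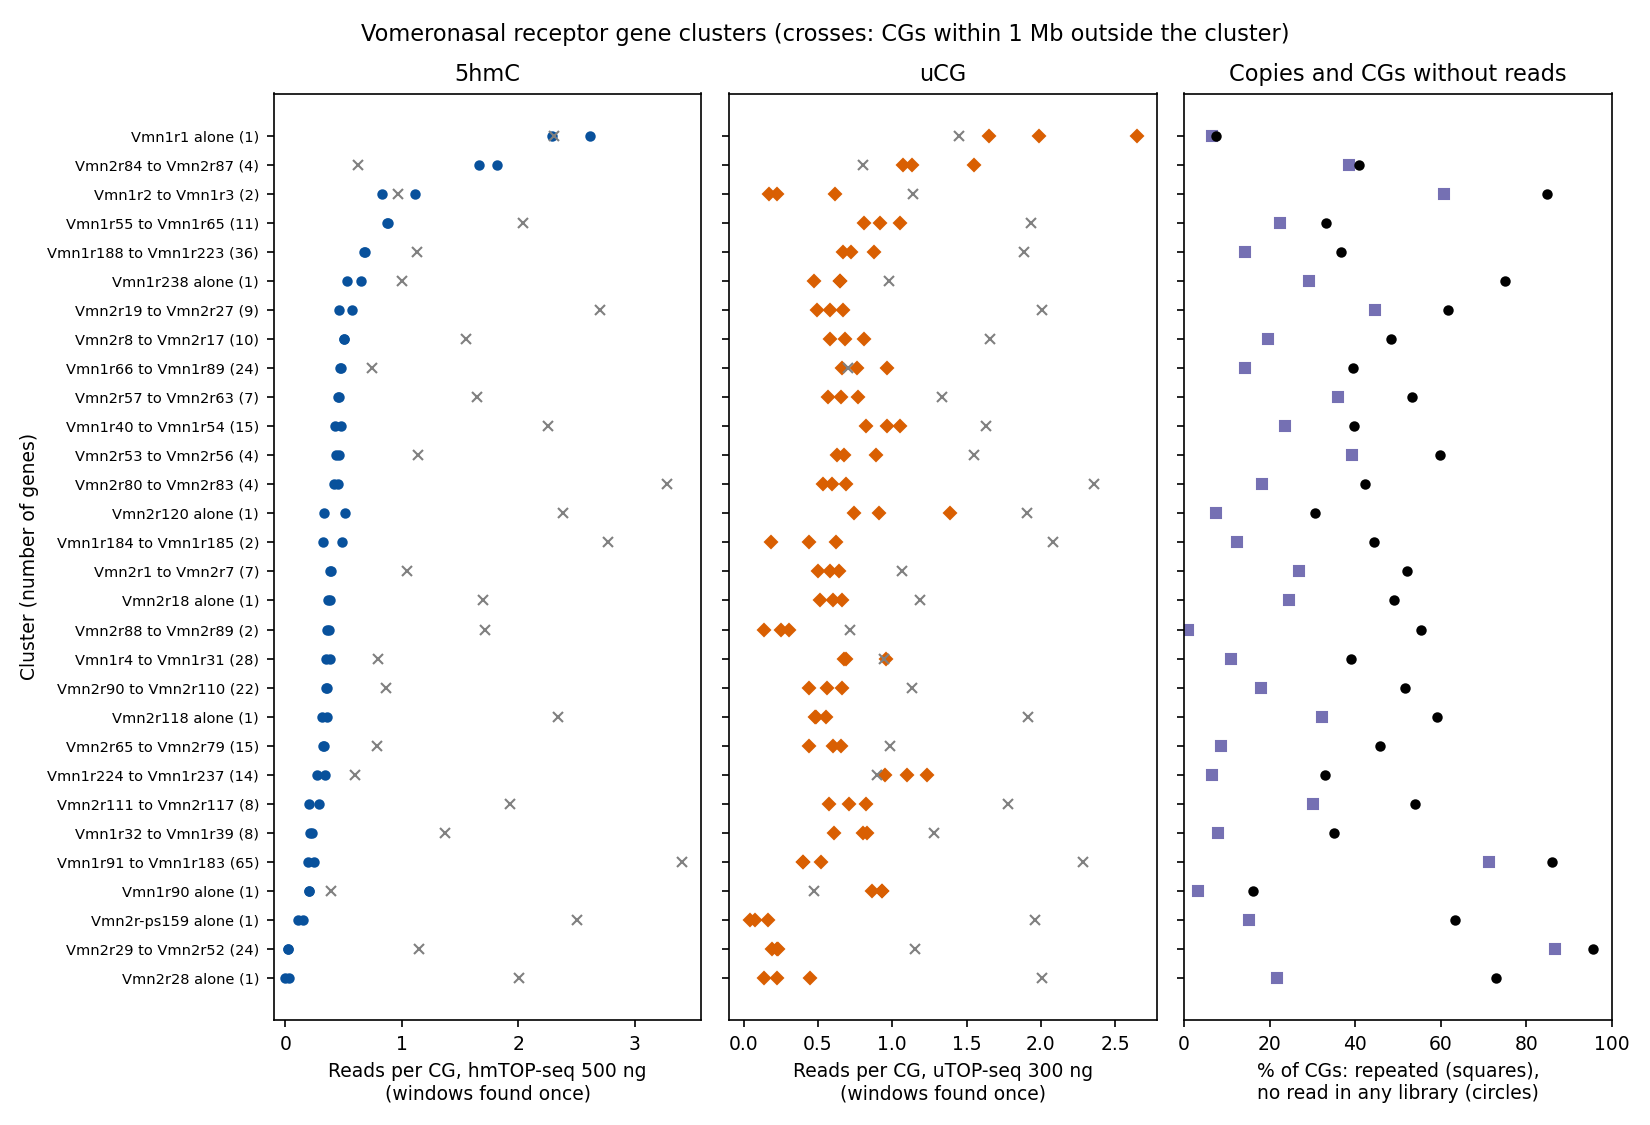
The 30 clusters (rows, with the number of genes, ordered by the 500-ng level) with their reads per CG at single-copy windows in hmTOP-seq at 500 ng (left, 2 libraries) and uTOP-seq (middle, 3 libraries), and the percentage of CGs repeated (squares) and without a read in any library (circles, right). Crosses are single-copy CGs within 1 Mb outside the cluster, which exceed the cluster mean in 27 of 30 rows for 5hmC and 25 for uCG.

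Within the genes, coding exons had the least 5hmC in the 500-ng libraries. At single-copy windows, Vmn1r coding exons had 0.279 and 0.321 reads per CG at 500 ng, introns 0.468 and 0.444, non-coding exons 0.516 and 0.463, the 2 kb upstream 0.524 and 0.499 and the 2 kb downstream 0.699 and 0.694. Vmn2r coding exons had 0.195 and 0.170, introns 0.363 and 0.380, the 2 kb upstream 0.375 and 0.386, non-coding exons 0.651 and 0.643 and the 2 kb downstream 0.739 and 0.737. In both families the coding exons lay below each of the other parts in both 500-ng libraries. With less input the order did not hold throughout. In the second 50-ng library Vmn1r coding exons had 0.375, above introns (0.339) and the 2 kb upstream (0.339), and in the first 5-ng library Vmn2r coding exons had 0.237, above introns (0.143) and the 2 kb upstream (0.164). In uCG the order was different. Vmn1r coding exons had 1.20, 0.933 and 0.823 reads per CG, above the 0.819, 0.691 and 0.658 downstream in each library. Vmn2r coding exons had 0.756, 0.635 and 0.559, and the 2 kb downstream 0.918, 0.732 and 0.664. These comparisons are over 616 and 843 coding CGs and are descriptive.

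At the gene starts, uCG was low as well. From 2 kb upstream to 500 bases downstream, the median was 0.537 reads per CG in Vmn1r and 0.407 in Vmn2r genes, against 0.708 in Olfr and 2.19 in the other genes, with a median of 10 CGs per vomeronasal receptor start region and 61 in the other genes. In 5hmC at 500 ng the same regions had medians of 0.0714 (Vmn1r), 0.0556 (Vmn2r) and 0.673 (other genes).

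Whether the balance of 5hmC and uCG reads differed from that of other genes was asked with edgeR's quasi-likelihood test on reads per region, hmTOP-seq at 500 ng against uTOP-seq, fitted over all autosomal protein-coding regions. The assays have no common scale, so a fold change is relative to the typical region (median log2 fold change -0.03 over all 19990 tested). Of 329 members 237 passed the filter of 10 reads in 2 libraries, and a member could pass it through uTOP-seq alone. Across this and the input comparisons below, 90 members entered no test. With an adjusted p under 0.05, 152 members were lower in 5hmC relative to uCG (64.1% of those tested, beside 41.6% of all regions) and 19 higher (8.02%, beside 40.3%). Of the 152 lower members, 71 lacked 10 reads in one or both 500-ng libraries, as did 80 of the 237 tested, of which 0 were higher. Among the 153 members with 10 reads in both 500-ng and in 2 uTOP-seq libraries, 81 were lower (52.9%) and 18 higher (11.8%), with a median log2 fold change of -0.73. Over all 237 the median was -1.34, with -1.39 in Vmn1r (91 lower and 9 higher of 143) and -1.17 in Vmn2r (61 lower and 10 higher of 94). With library totals in place of TMM scaling the median of all regions moved to -0.32 and that of the members to -1.62, with 175 members lower and 12 higher, beside 11024 lower and 5423 higher among all regions.

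The most significant members with less 5hmC were Vmn2r60, Vmn1r4, Vmn1r69, Vmn1r235 and Vmn2r108. Vmn2r60 had 86 and 72 reads at 500 ng and 330, 240 and 219 in uTOP-seq (log2 fold change -1.87 ± 0.16 SE, edgeR adjusted p = 1.08e-16). Vmn1r4 had 122 and 127 against 430, 311 and 278 reads (-1.58 ± 0.13, edgeR adjusted p = 1.12e-16). Vmn1r69 had 21 and 24 against 169, 123 and 115, Vmn1r235 8 and 3 against 90, 80 and 63, and Vmn2r108 17 and 11 against 124, 88 and 66 reads. Vmn1r235 is one of those that passed through uTOP-seq alone. In these 5 genes both 500-ng libraries held fewer reads than any uTOP-seq library.

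In the other direction were Vmn2r86, Vmn1r83, Vmn2r63, Vmn2r85 and Vmn1r55. Vmn2r86 had 353 and 300 reads at 500 ng and 154, 113 and 85 in uTOP-seq (log2 fold change 1.34 ± 0.14 SE, edgeR adjusted p = 3.08e-13). Vmn1r83 had 140 and 152 against 61, 53 and 24 reads (1.53 ± 0.22, edgeR adjusted p = 6.93e-09), and Vmn2r63 219 and 280 against 134, 114 and 109. Vmn2r85 and Vmn1r55 had log2 fold changes of 0.85 ± 0.14 and 0.74 ± 0.13. The members higher in 5hmC lay in 13 clusters, at most 4 in 1 (Vmn1r188 to Vmn1r223, which also had 14 lower ones).

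**Figure D5:**
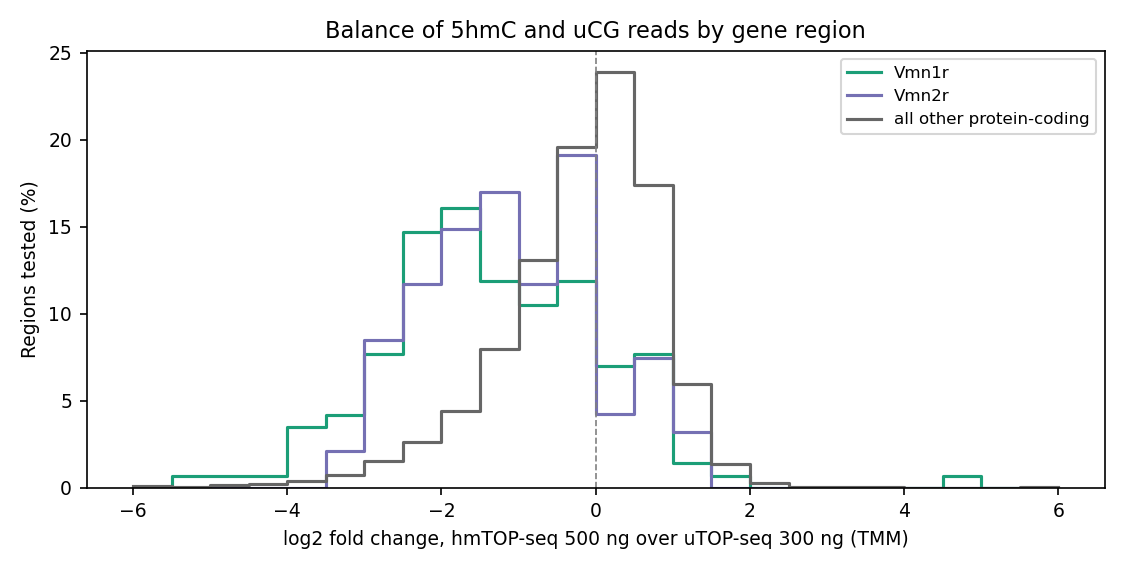
Distribution of the log2 fold change of reads per region, hmTOP-seq at 500 ng over uTOP-seq at 300 ng (x axis, bins of 0.5, TMM scaling), for tested Vmn1r, Vmn2r and all other protein-coding regions (y axis, percent of the regions of that group). The vomeronasal receptor regions lie mostly left of 0 (198 of 237), whereas 50.8% of the other regions do. Of the 237, 80 did not have 10 reads in both 500-ng libraries (median log2 fold change -2.30), so the filter itself favoured their place left of 0. The 153 with 10 reads in both 500-ng and in 2 uTOP-seq libraries had a median of -0.73.

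Less input DNA gave no difference called by edgeR in these genes. DESeq2 called 4 members at 5 ng (1 higher and 3 lower), beside 579 higher and 434 lower among all 19189 regions. At 50 ng against 500 ng, 181 members were tested, with 0 called higher (0% of all 19291 regions) and 0 lower (0.00518% of all regions), and 8 had an unadjusted p under 0.05 in edgeR. At 5 ng against 500 ng, 170 members were tested, with 0 called in either direction (0% of all 19189 regions in both), and 29 had an unadjusted p under 0.05. The share of all regions with an unadjusted p under 0.05 was not taken. By DESeq2 0 members were called at 50 ng, beside 74 higher and 76 lower among all 19291 regions. The median log2 fold changes were 0.03 at 50 ng and -0.15 at 5 ng. Among the members with the smallest p, some had no read in either 5-ng library. Vmn2r97 had 22 and 45 reads in the 500-ng, 12 and 35 in the 50-ng and 0 and 0 in the 5-ng libraries. In the same order, Vmn1r13 had 26 and 39, 33 and 21, and 0 and 0 reads, and Vmn2r67 19 and 27, 0 and 6, and 0 and 0. In Vmn1r194 the 5-ng libraries were highest, with 13 and 7, 7 and 7, and 29 and 47 reads. Vmn1r35 had 13 and 9, 39 and 32, and 44 and 18, and none of these passed the threshold in edgeR (lowest adjusted p = 0.295 at 50 ng and 0.393 at 5 ng). In DESeq2, Vmn1r194 passed it at 5 ng (DESeq2 adjusted p = 0.0144).

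The genes that vomeronasal neurons use beside the receptors ranged more widely. Of 25 listed genes 10 lay above the other genes' median in 5hmC and 9 in uCG, with medians of 1.21 and 1.18 reads per CG, against 0.188 and 0.486 for the receptors. Omp, the olfactory marker protein, had 6.47 and 6.57 reads per CG at 500 ng, Trpc2, the transduction channel, 5.49 and 5.49, and Plcb2, a phospholipase C of chemosensory signaling, a mean of 4.34. The G protein subunit genes Gnai2, Gnao1 and Gng8 had 3.58 and 3.38, 2.12 and 2.06, and 3.09 and 2.83. The transcription factor genes Bcl11b and Tfap2e had 3.10 and 2.89, and 2.85 and 2.92, Meis2 a mean of 1.53, and the chloride channel genes Ano1 and Ano2 2.20 and 2.16, and 1.06 and 1.01. The clustered families in the list mostly had lower levels. Exceptions were H2-M10.2 and H2-M10.1, whose mean of 1.21 lay above that of Ano2 (1.03). The 4 formyl peptide receptor genes Fpr-rs3, Fpr-rs4 and Fpr-rs6 had means of 0.543, 0.192 and 0.125, Fpr-rs7 had 0.682 and 0.318 in its libraries, and the nonclassical MHC genes H2-M1, H2-M9, H2-M10.1 to H2-M10.6 and H2-M11 0.118 (H2-M11) to 1.78 (H2-M10.2). Of the listed genes 24 entered the 5hmC against uCG test. Of these, 9 were higher (beside 40.3% of all regions), 7 lower (beside 41.6%) and 8 not called by edgeR. Among the highest were Omp (log2 fold change 1.70 ± 0.10) and Trpc2 (1.33 ± 0.06), and among the lowest H2-M11 (-3.77 ± 0.67). H2-M11 (17 CGs, 0.0588 and 0.176 reads per CG at 500 ng) passed the filter through uTOP-seq alone. So did Fpr-rs4 (26 CGs, 0.115 and 0.269), another of the lower genes. H2-M10.3, also lower, fell short of 10 reads in the first 500-ng library (41 CGs, 0.220 reads per CG).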

How the data were processed

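The deposited tables hold raw read counts per CG, with strands merged for hmTOP-seq and by strand for uTOP-seq. For hmTOP-seq, the authors set a minimum raw read length of 80 nt and a minimum mapping quality of 30 on mm10, and removed duplicates of the same start and length. For uTOP-seq these settings, and for both assays the aligner, are not given in the sources used here. The submitters' processing notes name mm10. All 15 sample columns were used.

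Reads per CG are reads divided by all reference CGs of a region. CGs without a listed row count as 0. Each CG lay on a reference CG. Windows of 80 bases were counted over the primary GRCm38 assembly, and windows were also mapped with minimap2 2.31. Levels were compared within libraries by exact sign-flip permutation tests, and regions by edgeR 4.0.16 (quasi-likelihood, TMM, Benjamini-Hochberg, threshold 0.05, at least 10 reads in 2 libraries), with DESeq2 as the alternative. Both were tested on simulated data. Group names and replicate numbers come from the labels. Libraries range in depth 14884939 to 32502791 reads for labelled ones, which sets the counting error of regions with few reads. The authors describe the hmTOP-seq replicates as technical, and the kind of the uTOP-seq replicates is not given in the labels.

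The members and lists were chosen with earlier results of these data known. Named genes are, among members with at least 20 CGs, the 5 with most and the 5 with fewest 500-ng reads per CG of each family, the 3 highest in uTOP-seq, the 3 with the largest share of unread CGs, the 5 with the smallest adjusted p per edgeR comparison and direction, the first and last gene of clusters, and the 25 signaling genes, of which 1 is not reported here by name. Protein identity was not used here, and shared 80-base windows, chosen after the data were seen, took its place. The printed CGs and the shared window were also chosen after values were seen.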

Additional observations from a re-analysis of the deposited data

How the results depend on the processing

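The 5hmC and uCG levels of the receptor regions stayed below those of the other genes, and Vmn1r above Vmn2r, under each alternative run (gene spans alone, 5-kb flanks, single-copy windows of 80 or 50 bases, reads capped at 20 per CG, each where planned). Leaving out 1 library at a time gave 5hmC log2 ratios of -2.49 to -2.45 against the other genes and 0.49 to 0.60 between the families, where 5 libraries cannot go below an exact sign-flip permutation p of 0.0625. For uCG the medians over genes gave -1.69 and 0.35. For 5hmC they could not be formed, since the median was 0 in a 5-ng library. The share of CGs without a read (54.7%) became 78.7% with hmTOP-seq alone, 62.1% with uTOP-seq alone, 60.4% with labelled libraries thinned to the smallest, 39.2% at single-copy windows, and 54.7 to 60.1% with 1 library left out. The share of repeated CGs (32.0%) became 41.2% with 50-base windows and 44.5% by minimap2. The lowest cluster at 500 ng was Vmn2r29 to Vmn2r37 (0.00217 reads per CG) with gaps of 0.5 Mb and Vmn2r28 to Vmn2r52 (0.00755) with gaps of 2 Mb. Members called at 50 ng ranged from 0 to 22 and at 5 ng from 0 to 112 with 1 library left out. The calls came from leaving out a 50-ng or a 5-ng library, where the lone library is assumed to vary like the 500-ng pair. Many regions of other genes were called in the same runs, so such calls are not particular to the members. Without the first and the second 50-ng library, the members' median log2 fold change was 0.04 and -0.01. Without the first and the second 5-ng library it was -0.73 and -0.44, beside -0.02 and -0.01 over all regions. Without the first and the second 500-ng library, the members' median at 5 ng was 0.26 and 0.29, beside 0.01 in both over all regions. These runs tested 125 members, so the sign of the 5-ng median depended on the library left out and on which members passed the filter. DESeq2 called 4 members at 5 ng, beside 579 higher and 434 lower among all 19189 regions. Calls of 5hmC against uCG numbered 153 to 187 under the alternatives, against 171. Same-numbered libraries did not deviate together (correlations of -0.0082 to 0.0258), and a replicate block gave 0, 0 and 163 calls at 50 ng, at 5 ng and for 5hmC against uCG. At 5 ng, counts of a few reads per member limit what can be seen.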
